A study of Mus musculus with 36 samples.

Results

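T, Eomes, Mixl1, Evx1, Mesp1 and Lhx1 encode transcription factors of the primitive streak and of the mesoderm that leaves it. The genes were chosen with earlier results of these data known, so the share of them called is not an unbiased rate. All probes of the deposited table annotated to them by symbol were taken, whatever their values: 6 genes of 30869 symbols, with 9 probes of 45281. T, Evx1 and Mesp1 had 1 probe each, and Eomes, Mixl1 and Lhx1 had 2. For a gene with 2 probes, the probe with the higher mean level over all arrays stands for the gene. RNA from pieces of MF1 mouse embryos, an outbred wild-type stock, was amplified and measured on 36 Illumina MouseWG-6 arrays. Each array held RNA from a pool of 6 to 74 pieces, so the spread between replicates is a spread between pools. There were 16 regions, 4 with 3 arrays and 12 with 2.

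At E7.5, in headfold embryos, the anterior region fated to neural tissue (A), the posterior region that includes the primitive streak (P) and the proximal posterior region at the streak's far end (PP) were taken. At E8.5 the pieces were RN from the rostral node, NSB from the border of node and streak, the anterior streak (St1), the posterior streak (St5) and the caudal lateral epiblast (CLE), which was freed of the mesoderm and endoderm beneath it. From E9.5 to E13.5 the tail bud gave its chordoneural hinge (CNH), and from E9.5 to E11.5 also the piece just posterior to it (P-CNH). Every piece was a mixture of cell types, and in such RNA fewer cells of a type cannot be told apart from less RNA per cell.

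The primitive streak is the site at which epiblast cells leave the epithelium to form mesoderm and endoderm, under Nodal, Wnt, BMP and Fgf signals. T and Eomes are T-box factors that act early in this process. Mixl1 and Evx1 are homeobox factors of the streak, Mesp1 is a helix-loop-helix factor of nascent mesoderm known for its place upstream of the heart, and Lhx1 is a LIM-homeobox factor of the node, the anterior mesendoderm and the visceral endoderm.

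Promoter sequence was available for 5 of the 6 genes, all but Mixl1, as windows of 300 bases around the RefSeq start site in GRCm38.p6. These windows were searched on both strands for AGGTGT, the core bound by T-box factors, for CTTTGA, a site bound by the TCF and LEF factors of the Wnt pathway, and for CAGAC, a box bound by SMAD factors. AGGTGT was in the windows of T, Evx1 and Mesp1, 3 of 5, and in 13.7% of all 32851 windows of that length. CTTTGA was in those of T and Mesp1, 2 of 5, against 16% of all windows, and CAGAC in those of Evx1, Mesp1 and Lhx1, 3 of 5, against 49.6%. T and Mesp1 held both AGGTGT and CTTTGA, as did 2.58% of all windows. None of these matches overlapped. The windows of the 3 genes with AGGTGT are shown because T, a T-box gene, is itself among the 6. They lie at chr17:8434173-8434472 on the plus strand (T), chr6:52313248-52313547 on the plus strand (Evx1) and chr7:79793541-79793840 on the minus strand (Mesp1). Each is printed 5′ to 3′ along its gene, with AGGTGT and CTTTGA in capitals on either strand, so that ACACCT and TCAAAG are their matches on the opposite strand.
T: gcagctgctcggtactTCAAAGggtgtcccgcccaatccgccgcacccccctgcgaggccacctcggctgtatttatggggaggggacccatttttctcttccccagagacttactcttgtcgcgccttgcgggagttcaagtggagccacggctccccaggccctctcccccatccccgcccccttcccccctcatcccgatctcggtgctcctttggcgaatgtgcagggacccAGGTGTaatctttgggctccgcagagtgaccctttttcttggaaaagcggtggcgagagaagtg
Evx1: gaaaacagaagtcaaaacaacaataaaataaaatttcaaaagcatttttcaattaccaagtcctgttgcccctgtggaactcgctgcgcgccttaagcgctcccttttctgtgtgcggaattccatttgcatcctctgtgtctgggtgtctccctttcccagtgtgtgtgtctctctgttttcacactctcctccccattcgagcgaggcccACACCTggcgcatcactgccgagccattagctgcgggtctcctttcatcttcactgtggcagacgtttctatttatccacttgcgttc
Mesp1: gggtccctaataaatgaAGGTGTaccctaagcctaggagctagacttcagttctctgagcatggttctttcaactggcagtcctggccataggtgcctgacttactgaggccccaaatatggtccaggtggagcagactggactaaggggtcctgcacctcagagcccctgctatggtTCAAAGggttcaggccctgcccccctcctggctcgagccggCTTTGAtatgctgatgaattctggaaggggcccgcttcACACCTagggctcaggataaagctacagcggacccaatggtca
The T window held AGGTGT 14 bases before the start site and CTTTGA 234 bases before it, on opposite strands. The Evx1 window held AGGTGT 38 bases before the start. The Mesp1 window held AGGTGT 233 bases before the start and again after it, and CTTTGA at 72 and 31 bases before it. A match of letters is a description and does not show that a factor binds there.

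Levels are log2 intensities after background correction and quantile normalisation. On this scale the dimmest detected probe of an array lay between 5.55 and 7.19, and the probes of these 6 genes, where undetected, lay between 4.39 and 6.42. Levels of the 6 genes are compared between regions for 1 probe at a time, never between probes. A probe was called detected on an array at a detection p-value under 0.01. By that measure T was detected on 36 of 36 arrays, Evx1 on 34, Mixl1 on 26, Mesp1 on 20, Lhx1 on 16 and Eomes on 1. The filter kept 21712 probes detected on at least 1 array, 8 of the 9 probes of these genes among them. The second Eomes probe was detected on 0 arrays and was not tested, and the first passed only through E7.5 PP replicate 2.

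The arrays fell into 3 batches of 12, as the labels name them, and differed in brightness. The number of detected probes per array ran from 10814 to 16256, with batch medians of 15875, 13803.5 and 14697. Median signal over background was 8.64, 4.19 and 5.89 in batches 1, 2 and 3. Fewest probes were detected on 5 arrays, E13.5 CNH replicate 2 (10814), E8.5 CLE replicate 1 (11062), E11.5 P-CNH replicate 1 (12280), E8.5 CLE replicate 2 (12289) and E7.5 P replicate 1 (13073). E7.5 A replicate 3, the only A array in batch 3, stood apart from the other A arrays in markers of visceral endoderm, the extra-embryonic layer around the early embryo. The summed intensity of 7 such markers was 37826 on the A array with most and 1584 on the A array with least. Such sums of markers are of intensities before normalisation, so the brightness of the arrays and the response of each probe enter them, and they serve only to show the size of a signal.

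Differences between regions are from 1 limma fit to all 36 arrays with region and batch as terms. E8.5 NSB replicate 3 is the only array that ties batch 1 to the other batches, and the fit passes through it exactly, with a leverage of 1. Any comparison of a batch 1 region with a region of another batch, and the batch-adjusted means of batch 1 regions beside those of others, rest on that array. A gene was called at an adjusted p of 0.05 or less, over all 21712 probes, and a fold change of at least 1.5. The pieces held the markers that define them to different degrees. Otx2, a factor of the anterior neural plate, averaged 12.32 ± 0.49 (SD, n = 3) in E7.5 A and 6.27 ± 0.29 (n = 2) in PP. Noto, a factor of the notochord, averaged 8.88 ± 0.50 (n = 3) in E8.5 NSB and 8.28 ± 0.31 (n = 2) in RN, and was undetected on all 3 CLE arrays.

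**Figure D1:**
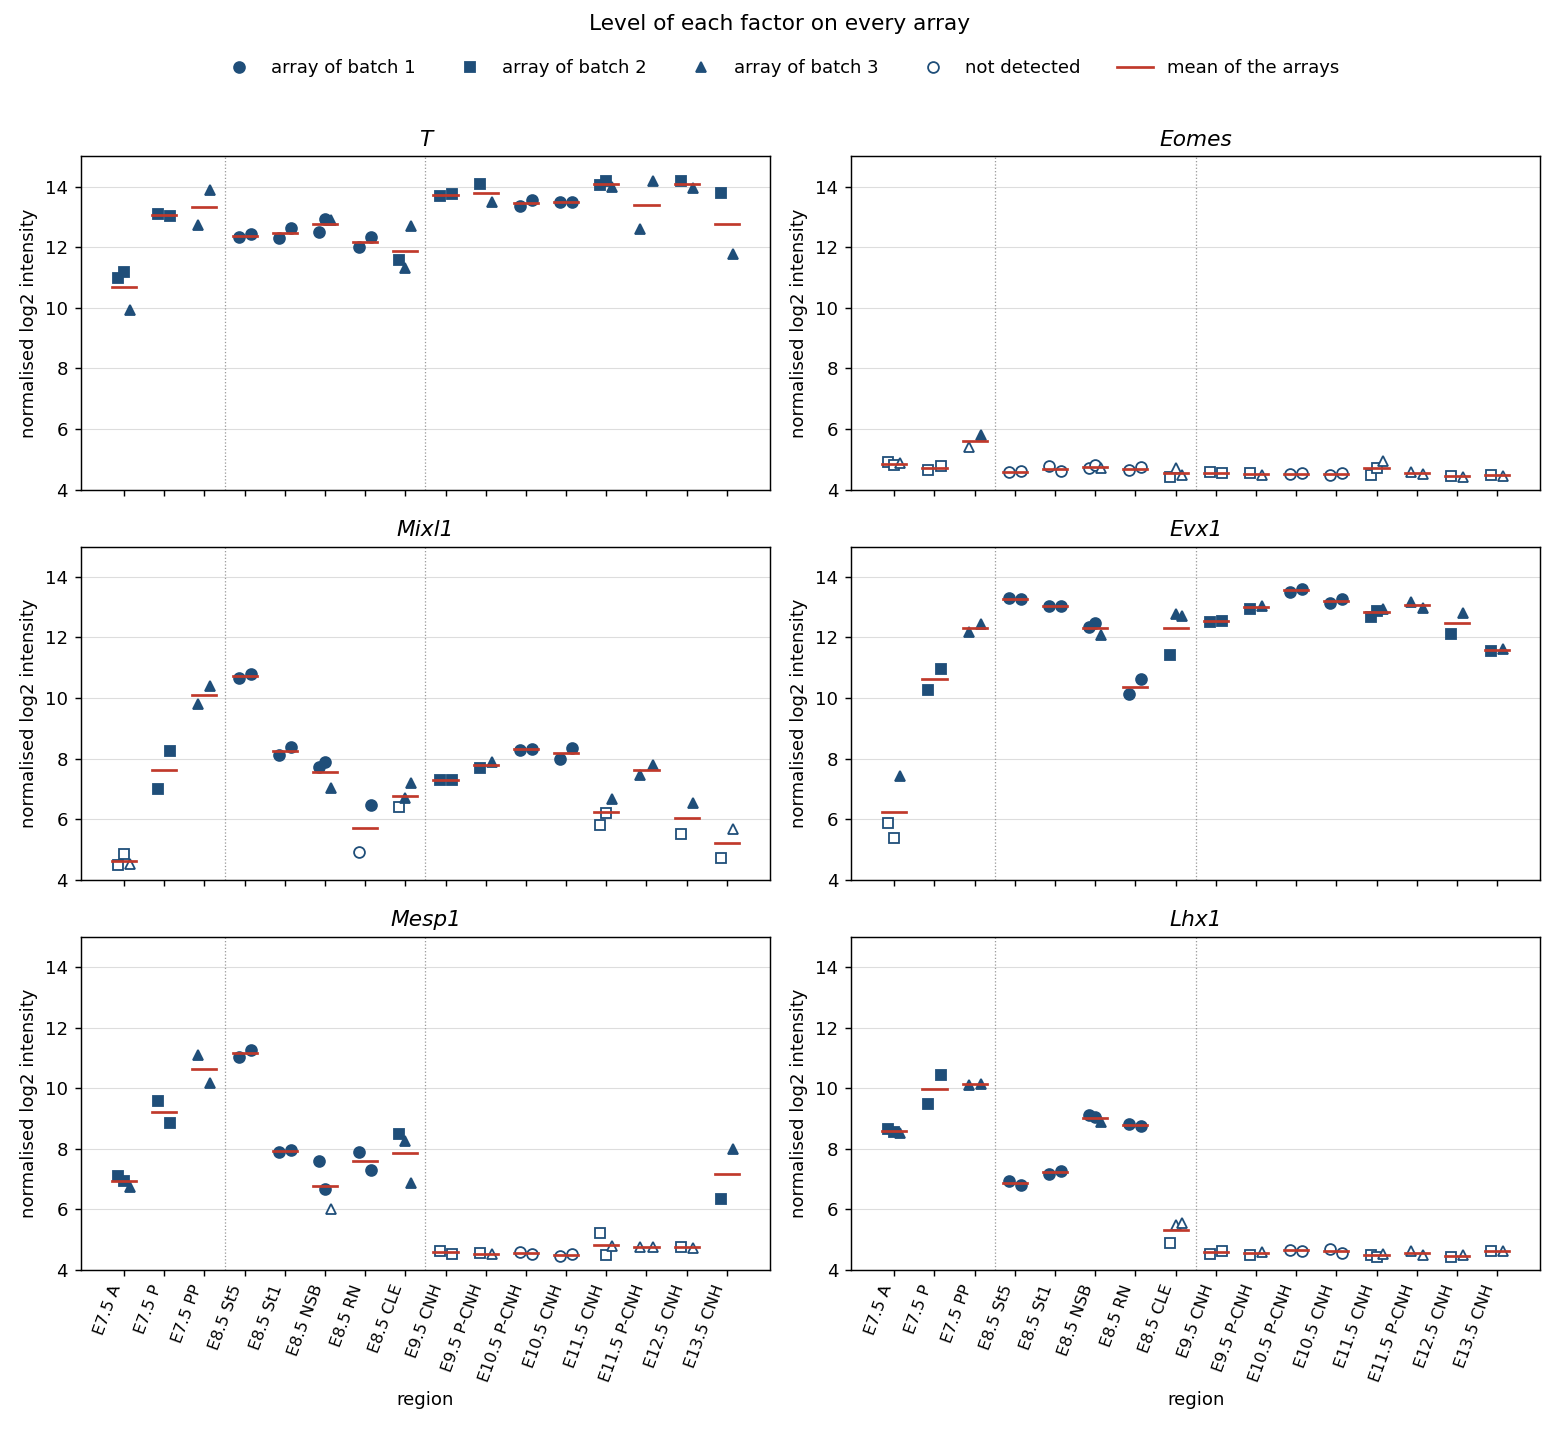
Normalised log2 intensity (vertical axis) of each gene's main probe on each of the 36 arrays, by region (horizontal axis). Marker shape gives the batch, open symbols are arrays on which the probe was not detected, red bars are means over the arrays of a region, and dotted lines part E7.5, E8.5 and the tail bud. T and Evx1 stay high into the tail bud, while Mesp1 is undetected from E9.5 to E12.5 and Lhx1 in CLE and all tail bud regions.

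At E7.5, 5 of the 6 factors, all but Eomes, were higher in the posterior pieces than in the anterior piece. T was 10.99, 11.18 and 9.92 on the A arrays, 13.09 and 13.04 on the P arrays and 12.73 and 13.90 on the PP arrays. Evx1 was 5.88, 5.39 and 7.43 in A, 10.27 and 10.96 in P and 12.18 and 12.46 in PP, and it was detected in A on replicate 3 alone. Mixl1 was undetected on all 3 A arrays (4.50, 4.86 and 4.51) and was 7.01 and 8.26 in P and 9.82 and 10.41 in PP. For these 3 genes no P or PP array overlapped the A arrays, whereas P and PP overlapped for T. Mesp1 was 7.10, 6.94 and 6.75 in A, 9.59 and 8.87 in P and 11.11 and 10.17 in PP. Lhx1 was 8.65, 8.56 and 8.52 in A, 9.47 and 10.45 in P and 10.11 and 10.14 in PP. Mesp1 and Lhx1 were thus detected in every E7.5 piece, the anterior one included.

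In P against A, 5 of the 6 genes were called, all higher in P, where 2.73% of all tested probes were called. Evx1 differed by 4.63 ± 0.32 (SE) on the log2 scale (adjusted p = 1.78e-09) and was higher on 2 of 2 P arrays than on any A array. Mixl1 differed by 3.18 ± 0.38 (adjusted p = 8.8e-06). Since A was undetected, this is given as at least 2.98-fold higher, with each A array set to the dimmest detected probe of that array. The bound was 4.60-fold without P replicate 1 and 1.93-fold without P replicate 2. Mesp1 differed by 2.29 ± 0.44 (adjusted p = 0.00326), T by 2.18 ± 0.48 (adjusted p = 0.00951) and Lhx1 by 1.43 ± 0.21 (adjusted p = 0.000166), each higher on both P arrays. Eomes was undetected on all arrays of both regions, so no fold is given. The median difference was 2.24 over the 6 genes and -0.04 over all probes. Within batch 2, which held 2 arrays of each region, the differences were 2.21 for Mesp1, 1.98 for T and 1.35 for Lhx1. Evx1 and Mixl1 were undetected on both A arrays there and were at least 22.4-fold and 2.83-fold higher in P.

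Some of these calls and differences depended on single arrays or settings. The T call was lost without P replicate 1 (2.15) and without P replicate 2 (2.21), and the Mesp1 call without P replicate 1 (1.93). The Lhx1 difference was 0.94 and still called without P replicate 2, and its call was lost with cyclic loess normalisation (1.13), with the other Lhx1 probe (1.36) and with batch 2 alone. The Mixl1 difference was 2.02 with no background correction and 1.48 with a larger offset.

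In PP against A, 6 of 6 genes were called, all higher in PP, where 6.15% of all probes were called. Eomes was admitted to the tests by a PP array alone, so its call is not read as a difference. Evx1 differed by 5.59 ± 0.34 (adjusted p = 1.04e-10), and both PP arrays lay above all A arrays. Mixl1 was at least 16.7-fold higher, with a fitted log2 difference of 5.15 ± 0.40 (adjusted p = 6.56e-09). Mesp1 differed by 3.72 ± 0.47 (adjusted p = 9.61e-06), T by 3.00 ± 0.50 (adjusted p = 0.000316) and Lhx1 by 1.46 ± 0.23 (adjusted p = 0.000125), each higher on 2 of 2 PP arrays. The median over the 6 genes, Eomes among them, was 3.36, beside -0.03 over all probes. Batch 3 held both PP arrays and A replicate 3 alone. Within it Mixl1 was at least 18.4-fold higher in PP, and the differences were 4.89 for Evx1, 3.89 for Mesp1, 3.40 for T and 1.61 for Lhx1, and with so few arrays the fit of that batch alone called none of them. Without A replicate 3, the differences were 6.18 for Evx1, 4.77 for Mixl1, 3.58 for Mesp1, 2.66 for T and 1.33 for Lhx1, all still called, with Evx1 and Mixl1 undetected on the A arrays left.

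Eomes, the T-box factor that acts with Nodal signalling, was near the floor of the measurement. It was 5.40 and 5.81 on the PP arrays and 4.92, 4.80 and 4.86 on the A arrays, with detection p-values of 0.0353 and 0.00107 in PP and 0.204 or more in A. The fitted difference was 0.68 ± 0.17 (adjusted p = 0.0138), higher on both PP arrays, and no fold is given so near the floor. Since PP replicate 2 alone brought the probe past the filter, this test is not independent of its admission. With no detection filter the adjusted p was 0.00118, but it comes from the same array values and adds no independent support. The PP mean lay below the dimmest detected probes of the A arrays. The call was lost without A replicate 3 (0.64), without PP replicate 2 (0.48), with no background correction (0.33), with the larger offset (0.22) and with a ComBat-type adjustment lacking covariates (0.38). With cyclic loess it was 1.24.

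In PP against P, 1 gene was called, Mixl1, where 0.792% of all probes were called. Its difference was 1.98 ± 0.46 (adjusted p = 0.0429), with both PP arrays above both P arrays. The regions shared no batch, so no value within a batch can be had and the batch term rests on the other regions. With each of the 36 arrays left out in turn the call was kept 14 times, and the difference ran from 1.35 without P replicate 1 to 2.60. It was 2.28 without PP replicate 1 and 1.68 without PP replicate 2. It was 1.12 with the other Mixl1 probe, 1.09 with the ComBat-type adjustment lacking covariates, and 1.45 with the 5 dimmest arrays left out, each time without a call. The call was also lost with the BeadChip as a fixed term (2.65) and, at the same 1.98, with no detection filter. Mesp1 (1.43, adjusted p = 0.313; called at 1.98 with cyclic loess and at 1.89 without the 5 dimmest arrays), Evx1 (0.96, adjusted p = 0.366) and T (0.82, adjusted p = 0.669) were not called. The Eomes difference of 0.79 (adjusted p = 0.0632, and 0.00782 with no detection filter) involves the same PP array and is not read further.

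Some genes of the signals and partners of these factors were called in the same comparisons. Of 7 tested genes of streak-inducing signals, 4 were higher in P than A and 0 lower: Wnt3a (at least 68.5-fold), Lefty2 (at least 6.48-fold), Nodal (at least 3.07-fold) and Fgf8 (7.39-fold). In PP against A, 3 of 7 were higher, namely Wnt3a (at least 97.7-fold), Fgf8 (8.18-fold) and Bmp4 (5.88-fold). Nodal and Lefty2 were lower in PP than in P, by -1.87 and -2.56 on the log2 scale. Of 14 tested genes of the streak and paraxial mesoderm, 9 were higher and 1 lower in P than A, with a median of 2.67, and 12 higher and 1 lower in PP. Cdx1 (at least 49.1-fold), Cdx2 (60.9-fold), Tbx6 (at least 25.9-fold) and Nkx1-2 (30.5-fold) had the largest differences in P. The 1 lower gene, Cyp26a1, a retinoic acid-degrading enzyme (-1.62 in P and -1.85 in PP), was singled out after its values were seen. Of 9 axial mesoderm and endoderm genes, 5 were lower in P and 6 in PP than in A, with 0 higher, among them Otx2 (-2.47 in P) and Gsc (at least 8.37-fold lower in P).

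Markers of visceral endoderm, where Lhx1 and Eomes are also known to be expressed, moved with PP. Of 7 such markers, 5 were higher in PP than A and 0 lower, namely Apoa2 (3.66), Apob (3.30), Rbp4 (3.06), Afp (2.54) and Amn (2.45), the last named after its value was seen. All 7 were detected on both PP arrays, Ttr the brightest, and their summed intensity was 59623 and 65254 there. In P the sum was 4157 and 13808, with Afp and Rbp4 undetected and Apob alone higher than in A (2.14). In PP against P, 2 of the 7 were higher, Rbp4 (at least 12.4-fold) and Afp (at least 4.62-fold), and 0 lower. Hand1, of the cardiac and lateral mesoderm genes, was higher in PP than in A (2.40) and than in P (at least 3.48-fold), 1 of 6 each time. In PP against A, Grhl3 was higher (at least 1.92-fold), 1 of 5 surface ectoderm markers, and Elavl3 lower (-1.81), 1 of 5 spinal cord neuron markers. The part of these tissues in the differences of the streak factors was not tested. Blood markers were not called in any E7.5 comparison, and their summed intensity was 435 to 2007 in A, 493 to 818 in P and 1049 to 1686 in PP. Notochord markers went the other way: 2 of 6 were lower in P than A, Shh (-2.14) and Sox9 (-1.29), and 3 in PP.

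**Figure D2:**
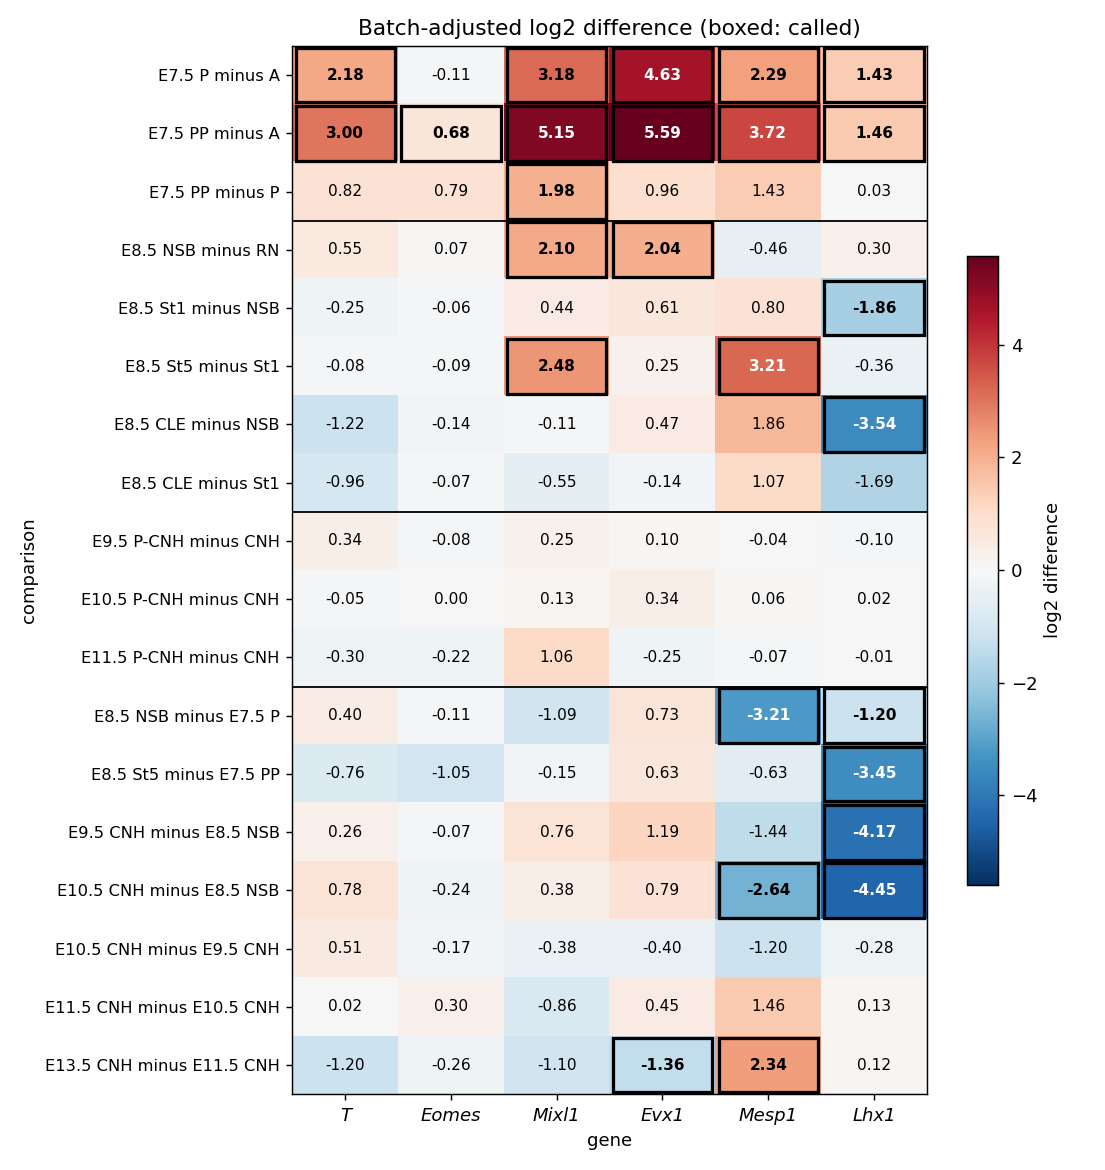
Batch-adjusted log2 difference (colour and printed value) of each gene (horizontal axis) in each of the 18 comparisons of regions (vertical axis), with boxes around the differences called. Red is higher in the region named before "minus". The boxes gather in P and PP against A, and the comparisons of P-CNH with CNH have none.

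At E8.5 the 5 pieces separated the factors from each other, with Mixl1 and Mesp1 highest in St5, Lhx1 highest in NSB and RN, and T and Evx1 high in most pieces. Mesp1 was 11.04 and 11.26 in St5, 7.89 and 7.98 in St1, 7.59, 6.69 and 6.00 in NSB, 7.91 and 7.29 in RN and 8.48, 8.27 and 6.86 in CLE. Mixl1 was 10.66 and 10.79 in St5, 8.11 and 8.38 in St1, 7.73, 7.88 and 7.04 in NSB, 4.92 and 6.48 in RN and 6.42, 6.69 and 7.20 in CLE. Both genes were higher on each St5 array than on any other E8.5 array. Lhx1 was 9.12, 9.04 and 8.89 in NSB, 8.81 and 8.74 in RN, 7.18 and 7.27 in St1 and 6.94 and 6.80 in St5, and by this probe it was undetected on all 3 CLE arrays (4.89, 5.48 and 5.55). The second Lhx1 probe was detected on CLE replicate 1, at 7.60, and not on the other 2 (4.79 and 4.82), beside 8.72, 8.54 and 7.68 in NSB. Evx1 was 12.36, 12.49 and 12.09 in NSB and 10.12 and 10.64 in RN, and T was 12.51, 12.94 and 12.89 in NSB and 12.01 and 12.33 in RN. Eomes was detected on 0 arrays of E8.5.

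In St5 against St1, 2 of the 6 genes were called, both higher in St5, beside 3.27% of all probes. Mesp1 differed by 3.21 ± 0.48 (adjusted p = 0.000151) and Mixl1 by 2.48 ± 0.41 (adjusted p = 0.000496), each on 2 of 2 arrays. All arrays of both regions were in batch 1, so these are also the values within a batch. Evx1 (0.25), T (-0.08) and Lhx1 (-0.36) were not called. The median over the 6 genes was 0.08, and -0.01 over all probes. Of 6 tested cardiac and lateral mesoderm genes, 5 were called higher in St5: Isl1 (at least 29.8-fold), Hand1 (at least 9.02-fold), Gata6 (9.43-fold), Pdgfra (0.97 on the log2 scale), named after its value was seen, and Hand2. Hand2 was detected on the 2 St5 arrays alone and so entered the tests through them, and its difference is not read. Of the 7 streak-inducing signals 1 was higher, Bmp4 (9.73-fold), and 2 were called lower, Nodal (-1.23) and Fgf4. Fgf4 was detected on the 2 St1 arrays alone, and its difference is likewise not read. Also higher was Gata2, the only called spinal interneuron marker (at least 16.6-fold) and a factor also known from blood and lateral mesoderm. Of the 14 streak and paraxial mesoderm genes, 5 were lower in St5, among them Nkx1-2 (-2.32), Fst (-2.001), Cdx1 (-1.90) and Sp8 (-1.36), and 0 higher. Of the 9 axial mesoderm and endoderm genes, 2 were higher, Gsc (at least 2.71-fold) and Hhex (2.00), and 0 lower.

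In NSB against RN, 2 of the 6 genes were called, both higher in NSB, beside 0.134% of all probes. Evx1 differed by 2.04 ± 0.35 (adjusted p = 0.0115) and Mixl1 by 2.10 ± 0.41 (adjusted p = 0.0315), each higher on 3 of 3 NSB arrays than on any RN array. Within batch 1, with 2 arrays of each region, the values were the same, since NSB replicate 3 has no part in comparisons within batch 1. The Evx1 call was lost with no batch term (1.93), without NSB replicate 1 (2.11), without NSB replicate 2 (1.98) and without RN replicate 1 (1.79). It was 3.37 with the ComBat-type adjustment lacking covariates. The Mixl1 call was lost without RN replicate 1 (1.32), the array on which it was undetected, without NSB replicate 1 (2.18) and without NSB replicate 2 (2.03). It was also lost, at 2.10, without either St5 array or either E9.5 CNH array, and with no detection filter. Under cyclic loess (2.08), with no batch term (1.85) and with the other probe (2.19) it was not called, and it was 1.35 with no background correction and 1.13 with the larger offset. The signals Wnt3a (6.99-fold) and Fgf8 (3.85-fold) were higher in NSB, 2 of 7, as was Tbx6 (3.08-fold), 1 of 14 streak and paraxial mesoderm genes.

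Lhx1 was called lower in St1 and in CLE than in NSB, as were most of the probes called there. In St1 against NSB, 1 of the 6 genes was called, Lhx1, lower by -1.86 ± 0.23 (adjusted p = 1.48e-05) on both St1 arrays, beside 1.42% of all probes. Of all probes called, 306 were lower in St1 and 3 higher. Batch 1 held all arrays of St1 and 2 of NSB, and a fit of it alone also called Evx1, higher in St1 by 0.61 (adjusted p = 0.0404). In CLE against NSB, 1 was called, again Lhx1, beside 2.40% of all probes, 462 of them lower in CLE and 59 higher. By the main probe, 3 of 3 CLE arrays lay below NSB, and the means gave at least 5.55-fold lower, with a fitted difference of -3.54 ± 0.27 (adjusted p = 6.25e-09). Within batch 3, which held 2 CLE arrays and 1 NSB array, it was at least 6.16-fold lower and was not called in a fit of that batch alone. The fitted difference was -2.16 with the larger offset and -2.20 with the other Lhx1 probe, both still called, but by that probe CLE replicate 1 lay close to NSB replicate 3, so the bound holds for the main probe alone. Mesp1, higher in CLE by 1.86 ± 0.56 (adjusted p = 0.0983), was not called, and the NSB level in it rests on replicate 3, on which Mesp1 was undetected. It was called without CLE replicate 3 (2.44) and without E13.5 CNH replicate 1 or 2 (1.77 each), with the BeadChip as a fixed term (2.204) and under ComBat-type adjustment lacking covariates (1.41) or holding them (1.88). T differed by -1.22 ± 0.60 (adjusted p = 0.61), with overlapping arrays, and was called at -1.27 under the form holding covariates.

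Notochord markers fell with Lhx1 in these comparisons. Of 6, 5 were lower in St1 than NSB and 5 in CLE than NSB, with 0 higher. Shh was lower by -3.65 in St1 and at least 28.2-fold in CLE, Noto by -3.46 in St1 and at least 5.05-fold in CLE, and Chrd by -2.67 and -4.21. Their summed intensity was 2645 to 9742 in NSB, 1966 to 2311 in St1 and 447 to 773 in CLE, with Sox9 the brightest, and Shh, Noto and Foxa2 were undetected in CLE. Their part in the Lhx1 difference was not tested. Nodal was lower by -3.60 in St1 and at least 19.0-fold lower in CLE. Of the 9 axial mesoderm and endoderm genes, Sox17, an endoderm factor, was at least 5.38-fold lower in CLE, from which the endoderm had been removed. The blood marker Hbb-bh1 was at least 2.78-fold lower and the visceral endoderm marker Ttr at least 3.47-fold lower in CLE than in NSB.

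In CLE against St1, 0 of the 6 genes were called by limma, beside 0.106% of all probes, and 1 had an unadjusted p under 0.05. That gene was Lhx1, undetected by its main probe on all 3 CLE arrays, so its difference rests on values near background and is not exact. Lhx1 differed by -1.69 ± 0.35 (adjusted p = 0.0672), with 3 of 3 CLE arrays below St1. It was called with no batch term (-1.92), with the BeadChip as a random block (-1.84), under ComBat-type adjustment lacking covariates (-1.34) or holding them (-1.67) and without the 5 dimmest arrays (-1.48). At the same difference of -1.69 it was called with no detection filter and without E7.5 P replicate 1 or 2, and with the other Lhx1 probe, detected on CLE replicate 1, it was 0.02 (adjusted p = 1). No batch held both regions. Called lower in CLE than in St1 were Sox17, of the axial mesoderm and endoderm genes, Nodal, of the streak-inducing signals, and the notochord marker Sox9 (-2.65). Their part in the Lhx1 difference was not tested.

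In the tail bud, T and Evx1 were detected on every array, Mixl1 on every array up to E10.5 and on fewer after it, Mesp1 at E13.5 alone, and Lhx1 and Eomes on none. T was 13.68 and 13.78 in E9.5 CNH and 14.08 and 13.49 in P-CNH, and it averaged 13.503 in E10.5 CNH (SD 0.00437) and was 13.35 and 13.55 in P-CNH. Evx1 was 12.502 and 12.558 in E9.5 CNH and 12.95 and 13.05 in P-CNH, and 13.14 and 13.28 in E10.5 CNH and 13.49 and 13.61 in P-CNH. Mixl1 was 7.30 and 7.29 in E9.5 CNH and 7.71 and 7.90 in P-CNH, and 8.00 and 8.36 in E10.5 CNH and 8.28 and 8.33 in P-CNH. For Evx1 both P-CNH arrays lay above both CNH arrays at each of these ages. At E11.5, Mixl1 was 5.82, 6.19 and 6.66 in CNH and 7.45 and 7.79 in P-CNH, with no overlap, and it was detected on 1 of 3 CNH arrays and 2 of 2 P-CNH arrays. By the second Mixl1 probe the arrays overlapped, at 6.97, 7.05 and 5.54 in CNH, detected on 2 of 3, and 5.85 and 7.98 in P-CNH, detected on 1 of 2. T at E11.5 ran from 12.60 to 14.19 over the P-CNH arrays, around the CNH values of 14.07, 14.17 and 13.98. Evx1 at E11.5 was 12.69, 12.86 and 12.93 in CNH and 13.18 and 12.97 in P-CNH.

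In P-CNH against CNH, limma called 0 of the 6 genes at E9.5, beside 0.170% of all probes, 0 at E10.5, beside 0.318%, and 0 at E11.5, beside 0.161%. At an unadjusted p under 0.05 the counts were 0, 0 and 1. The 1 was Mixl1 at E11.5, with a difference of 1.06 ± 0.40 (adjusted p = 0.736), and its 95% confidence interval ran from 0.23 to 1.89. By the second probe it was 0.76 (unadjusted p = 0.198). Within batch 3 the Mixl1 difference by the main probe was 0.96, from 2 P-CNH arrays and 1 CNH array. The Evx1 differences were 0.10, 0.34 and -0.25 at E9.5, E10.5 and E11.5. At E11.5 the sign goes against the arrays, since both P-CNH arrays lay above all 3 CNH arrays, and within batch 3 the difference was 0.15. The direction for Evx1 at E11.5 thus depends on the batch term. For T the differences were 0.34, -0.05 and -0.30. The intervals of T, from -0.76 to 1.44 at E9.5 and from -1.34 to 0.74 at E11.5, leave room for differences above 1.5-fold. At E9.5 batch 2 alone gave 0.42 for Evx1, 0.41 for Mixl1 and 0.35 for T, from 1 P-CNH array and 2 CNH arrays. At E10.5 all arrays were in batch 1.

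Whether the P-CNH to CNH difference itself changed with age was tested directly. For E10.5 against E9.5, E11.5 against E9.5 and E11.5 against E10.5, limma called 0 of the 6 genes each time, beside 0%, 0.0276% and 0.00461% of all probes, with 0 at an unadjusted p under 0.05 each time. The largest change was that of Mixl1 from E10.5 to E11.5, 0.93 ± 0.57 (adjusted p = 1). Notochord markers, by contrast, were lower in P-CNH, 3 of 6 at E9.5, 4 at E10.5 and 1 at E11.5, with Shh at least 21.4-fold and 34.9-fold lower at E9.5 and E10.5. No gene of the streak and paraxial mesoderm list was called in these comparisons.

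In E8.5 NSB against E7.5 P, 2 of the 6 genes were called, both lower in NSB, beside 3.07% of all probes. Mesp1 differed by -3.21 ± 0.64 (adjusted p = 0.00512) and Lhx1 by -1.20 ± 0.31 (adjusted p = 0.0308), each with 3 of 3 NSB arrays below both P arrays. The NSB level in these differences rests on replicate 3 alone. Mesp1 was undetected on that array, so its difference is taken from a value near background. Evx1 (0.73, adjusted p = 0.491) was called at 1.70 with no batch term, and Mixl1 (-1.09, adjusted p = 0.337) under ComBat-type adjustment lacking covariates (-1.57) or holding them (-1.07). The regions shared no batch. The Lhx1 call was lost without P replicate 2 (-0.72), with the other probe (-0.48), with cyclic loess (-0.84) and with the BeadChip in place of the batch as a fixed term (-0.93) or as a random block (-0.92). It was lost as well with the replicate block (-1.20, adjusted p = 0.0544). Of the visceral endoderm markers 2 were lower in NSB, Apob (at least 20.2-fold) and Amn (-3.16), and of the cardiac and lateral mesoderm genes 4, Isl1 (at least 8.36-fold), Gata6 (-3.14), Pdgfra (-2.03) and Gata4 (-1.39). The notochord markers Shh (3.50), Noto (2.77) and Foxa2 (2.12) and the blood marker Hbb-bh1 (at least 3.90-fold) were higher there. Of the 9 axial mesoderm and endoderm genes 3 were higher, those same notochord markers, and 2 lower, Otx2 (-3.66) and Cer1, the latter named after its value was seen. Of the 7 streak-inducing signals 1 was higher, Nodal, and of the 14 streak and paraxial mesoderm genes 1, Cdx4. The spinal cord neuron marker Elavl3 was called lower in NSB, where it was undetected. The part of these tissues in the Mesp1 and Lhx1 differences was not tested.

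In E8.5 St5 against E7.5 PP, the posterior ends of the streak at both ages, 1 of the 6 genes was called, Lhx1, beside 1.03% of all probes. It was lower in St5 on 2 of 2 arrays, by -3.45 ± 0.36 (adjusted p = 1e-05). The regions shared no batch. Mixl1 (-0.15, interval -1.49 to 1.19), Mesp1 (-0.63, interval -2.19 to 0.94) and Evx1 (0.63, interval -0.51 to 1.77) were not called. The Eomes difference of -1.05 (adjusted p = 0.0659, and 0.00529 with no detection filter) lies around the floor, involves the PP array that admitted the probe and is not read further. By array means, with batches left in, Mixl1 and Mesp1 were higher in St5 than in PP. The visceral endoderm markers Apob (-5.76) and Apoa2 (at least 25.9-fold) were lower in St5, 2 of 7. Fst, of the streak and paraxial mesoderm genes, was also called lower in St5 (-3.22).

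In E9.5 CNH against E8.5 NSB, 1 gene was called, Lhx1, beside 5.04% of all probes, and in E10.5 CNH against E8.5 NSB 2 were called, Lhx1 and Mesp1, beside 7.14%. All were lower in CNH. Lhx1 was at least 7.03-fold lower at E9.5 (fitted difference -4.17 ± 0.31, adjusted p = 3.33e-09) and at least 10.6-fold lower at E10.5 (-4.45 ± 0.23, adjusted p = 3.61e-12), on 2 of 2 CNH arrays each time. With the larger offset these differences were -2.34 and -2.52, both still called. Mesp1 was at least 2.22-fold lower at E10.5 (-2.64 ± 0.48, adjusted p = 0.000593). That difference was -1.68 with no background correction and -1.09, without a call, with the larger offset. At E9.5 its difference of -1.44 was not called (adjusted p = 0.251), and it rests on NSB replicate 3, where Mesp1 was undetected as in E9.5 CNH. It was called with no batch term (-2.18), with the replicate block (-1.91), without the 5 dimmest arrays (-1.53) and under ComBat-type adjustment lacking covariates (-1.56) or holding them (-1.44). Both comparisons share the NSB arrays. Within batch 1, which held 2 arrays each of E10.5 CNH and NSB, the E10.5 differences were the same. E9.5 CNH and NSB shared no batch, and the NSB level in all fitted E9.5 differences rests on replicate 3 alone. T differed by 0.26 and 0.78 and Evx1 by 1.19 and 0.79 at E9.5 and E10.5, higher in CNH and not called. In a fit of batch 1 alone, both were called at E10.5, at the same differences (adjusted p = 0.00542 for T and 0.00234 for Evx1). Under ComBat-type adjustment lacking covariates both were called at E10.5 (1.31 and 1.18) and Evx1 at E9.5 (1.40). Evx1 at E9.5 was also called with the BeadChip as a fixed term (2.28) and with ComBat-type adjustment that held the regions as covariates (1.17). The Mixl1 difference at E9.5, 0.76, was called at 1.22 under the form lacking covariates. The blood markers rose, 3 of 6 in each comparison, with a median of 3.26 at E9.5 and 3.94 at E10.5, and the summed intensity went from 714 to 4094 in NSB to 27259 to 33585 in E9.5 CNH, Hbb-y the brightest. Of the 7 visceral endoderm markers 2 were lower at E10.5, Ttr (at least 6.64-fold) and Amn (at least 4.88-fold). Their summed intensity was 824 to 1422 in NSB, Ttr the brightest, 564 to 624 in E9.5 CNH, where all 7 were undetected, and 436 to 488 in E10.5 CNH, where 5 were. Sox17 was at least 6.81-fold lower at E9.5 and lower by -2.35 at E10.5, and Gata6 was at least 1.72-fold and 2.60-fold lower. Otx2 was also called lower at both ages (-1.71 and -1.06). Of the 7 streak-inducing signals Nodal was lower by -4.89 and -4.74, 1 each time. Higher were 0 of them at E9.5 and 2 at E10.5, Wnt3 and Fgf8 (1.31). Of the 14 streak and paraxial mesoderm genes, Cdx1 and Fst were lower and Cyp26a1 (3.15 and 2.67) higher at both ages. Nkx1-2 (-1.84) was also lower at E10.5. The neuron marker Stmn2 was lower by -2.26 and -4.15, 1 of 5 each time, and the summed intensity of 7 neuron markers was 840 to 1367 in NSB, 676 to 762 in E9.5 CNH and 451 to 528 in E10.5 CNH. At E9.5, Cldn4 (-3.46) was lower, 1 of 5 surface ectoderm markers, and so was Sox9 (-1.79), 1 of 6 notochord markers, whose summed intensity was 2694 to 3456 in E9.5 CNH. The part of these tissues in the differences of Lhx1 and Mesp1 was not tested.

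Between consecutive CNH ages, limma called 0 of the 6 genes in E10.5 against E9.5, beside 0.0737% of all probes, and 0 in E11.5 against E10.5, beside 0.0829%, with 0 at an unadjusted p under 0.05 both times. No batch held both regions of either comparison. Some calls appeared only when batches were handled otherwise. Lhx1, undetected at all 3 ages, was called under ComBat-type adjustment lacking covariates (-1.35 and 1.23), Mixl1 in the later comparison with no batch term (-1.96), and Mesp1, also undetected, there under the form holding covariates (1.44). In E13.5 CNH against E11.5 CNH, 2 genes were called, beside 7.05% of all probes: Evx1 lower and Mesp1 higher at E13.5. Evx1 was 11.56 and 11.63 on the E13.5 arrays against 12.69, 12.86 and 12.93 at E11.5, a difference of -1.36 ± 0.32 (adjusted p = 0.00964). Within batch 2 it was -1.22, from 1 against 2 arrays, and within batch 3 -1.30, from 1 array each. Neither was called alone. The Evx1 call was also lost without E13.5 CNH replicate 2 (-0.98), with the 5 dimmest arrays left out (-1.02), with no batch term (-1.23) and with the replicate block (-1.16).

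Mesp1 was 6.35 and 7.99 at E13.5 and 5.23, 4.50 and 4.78 at E11.5, where it was undetected. The fitted difference was 2.34 ± 0.44 (adjusted p = 0.00144), with 2 of 2 E13.5 arrays above those of E11.5. With each E11.5 array set to its dimmest detected probe, the means differed by 2.12-fold. This fold was 1.20 without E13.5 CNH replicate 2 and 3.75 without replicate 1. The dimmest detected probe lay at 6.10 and 7.19 on the E13.5 arrays and at 6.04, 6.37 and 5.83 at E11.5. Any probe detected on E13.5 CNH replicate 2 thus lies above the E11.5 floors, and these folds are not read as lower bounds. The Mesp1 intensities before normalisation were 92.5 and 95.4 at E13.5 and 89.8, 71.5 and 90.4 at E11.5. The detection p-values at E13.5 were 0.00534 and 0.00107. The E13.5 arrays were dim, with a signal over background of 2.64 and 2.33 against 2.78, 2.68 and 5.81 at E11.5, and the part of brightness in this difference was not tested. Without E13.5 CNH replicate 2 the difference was 1.42 and not called. It was 1.48 with the 5 dimmest arrays left out, 1.44 with no background correction and 1.07 with the larger offset, all called. With the E11.5 floors set in the same way, Mesp1 was 1.10-fold higher within batch 2 and 4.45-fold within batch 3, neither called alone. T, 13.79 and 11.77 at E13.5, differed by -1.20 ± 0.47 (adjusted p = 0.129) and was called without E13.5 CNH replicate 1 (-2.09) and with the BeadChip as a fixed term (-1.16). Mixl1, undetected at E13.5, differed by -1.10 ± 0.38 (adjusted p = 0.0806) and was called, at the same -1.10, without either RN array, and also with the BeadChip as a random block (-1.09) or a fixed term (-1.12) and under ComBat-type adjustment holding covariates (-1.10). Of the 14 streak and paraxial mesoderm genes 5 were lower at E13.5 and 0 higher. Of the 7 streak-inducing signals 3 were lower, Fgf8 (-1.93), Lefty2 (-1.73, undetected at E13.5) and Wnt3a (-1.69), and 1 higher, Bmp4 (2.21). Of 6 notochord markers 1 was lower, Noto (-2.29), and their summed intensity was 2329 to 4763 at E11.5, Sox9 the brightest, and 1161 to 2529 at E13.5, Shh the brightest. Of 6 cardiac and lateral mesoderm genes 1 was higher, Pdgfra (1.53). The surface ectoderm markers Krt14 (4.44) and Trp63 (2.81) were higher, 2 of 5. The spinal cord neuron marker Stmn2 was called lower, 1 of 5, but it was undetected at E13.5, so no size is given. The part of these tissues was not tested. Intermediate mesoderm, another known site of Lhx1, had 2 tested markers, of which limma called 0 in all 18 comparisons, with 2 at an unadjusted p under 0.05. Of these markers Osr1 was detected on 36 arrays and Pax2 on 1, so Osr1 alone could be followed across regions.

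Ordered by the mean over arrays, which leaves batch differences in, T was highest in E12.5 CNH (14.08 ± 0.16, n = 2), followed by E11.5 CNH (14.08 ± 0.10, n = 3), E9.5 P-CNH (13.79 ± 0.42), E9.5 CNH (13.73 ± 0.07), E10.5 CNH (13.503 ± 0.00), E10.5 P-CNH (13.45 ± 0.14), E11.5 P-CNH (13.39 ± 1.13) and E7.5 PP (13.32 ± 0.82). Below these came E7.5 P (13.07 ± 0.04), E8.5 NSB (12.78 ± 0.24, n = 3), E13.5 CNH (12.78 ± 1.43), E8.5 St1 (12.47 ± 0.23), St5 (12.39 ± 0.08), RN (12.17 ± 0.23), CLE (11.87 ± 0.73, n = 3) and E7.5 A (10.70 ± 0.68, n = 3). Where no n is given, it is 2. Of the 15 steps between neighbours in this order, 2 exceeded the sum of both SDs, from E9.5 CNH to E10.5 CNH and from E7.5 P to NSB. Both cross batches and both turn round in the batch-adjusted means, where the gaps are -0.51 and -0.40.

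Evx1 was highest in E10.5 P-CNH (13.55 ± 0.08), then in E8.5 St5 (13.29 ± 0.03), E10.5 CNH (13.21 ± 0.10), E11.5 P-CNH (13.08 ± 0.15), E8.5 St1 (13.04 ± 0.01), E9.5 P-CNH (13.00 ± 0.07), E11.5 CNH (12.83 ± 0.12, n = 3), E9.5 CNH (12.53 ± 0.04) and E12.5 CNH (12.46 ± 0.50). It was lower in E7.5 PP (12.32 ± 0.20), E8.5 NSB (12.31 ± 0.21, n = 3), CLE (12.31 ± 0.76, n = 3), E13.5 CNH (11.59 ± 0.05), E7.5 P (10.61 ± 0.48), RN (10.38 ± 0.36) and E7.5 A (6.23 ± 1.06, n = 3). Of the 15 steps 4 exceeded the spread, the widest from RN to A, of 4.15 (3.31 after batch adjustment), and all 4 kept their direction in the batch-adjusted means. The top of the order did not keep its place: after batch adjustment Evx1 was highest in E9.5 P-CNH (13.24), with E10.5 P-CNH at 13.08 and St5 at 12.81. The other steps beyond the spread were from E10.5 P-CNH to St5, from E11.5 CNH to E9.5 CNH and from E13.5 CNH to E7.5 P.

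Mixl1 was highest in E8.5 St5 (10.72 ± 0.10) and E7.5 PP (10.11 ± 0.42), with a step of 1.81, beyond the spread, below PP (2.57 after batch adjustment). The step from St5 to PP also exceeded the spread, but it crosses batches and turns round in the batch-adjusted means, where PP lies 0.15 above St5. Then came E10.5 P-CNH (8.31 ± 0.04), E8.5 St1 (8.24 ± 0.19), E10.5 CNH (8.18 ± 0.25), E9.5 P-CNH (7.80 ± 0.13), E7.5 P (7.63 ± 0.88), E11.5 P-CNH (7.62 ± 0.24), NSB (7.55 ± 0.44, n = 3) and E9.5 CNH (7.30 ± 0.00). These did not differ from their neighbours beyond the spread. After 1 further step beyond the spread, kept in the batch-adjusted means, came CLE (6.77 ± 0.40, n = 3), E11.5 CNH (6.22 ± 0.42, n = 3), E12.5 CNH (6.02 ± 0.75) and RN (5.70 ± 1.10), with E13.5 CNH (5.21 ± 0.67) and E7.5 A (4.62 ± 0.20, n = 3) undetected.

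Mesp1 was highest in E8.5 St5 (11.15 ± 0.16) and E7.5 PP (10.64 ± 0.67), which did not differ beyond their spread and stand in the other order after batch adjustment, followed after a step beyond it by E7.5 P (9.23 ± 0.51). After another such step came St1 (7.93 ± 0.06), CLE (7.87 ± 0.88, n = 3), RN (7.60 ± 0.44), E13.5 CNH (7.17 ± 1.16), E7.5 A (6.93 ± 0.17, n = 3) and NSB (6.76 ± 0.79, n = 3), whose neighbours did not differ beyond their spread. All 7 tail bud regions before E13.5 were undetected, with means from 4.50 to 4.83. Lhx1 was highest in E7.5 PP (10.13 ± 0.02) and P (9.96 ± 0.69), which did not differ beyond their spread. Below them each step down to CLE exceeded the spread: NSB (9.02 ± 0.12, n = 3), RN (8.78 ± 0.05), A (8.58 ± 0.07, n = 3), St1 (7.23 ± 0.06), St5 (6.87 ± 0.10) and CLE (5.30 ± 0.36, n = 3, undetected). By limma, Lhx1 was not called in NSB against RN (0.30) or St5 against St1 (-0.36), nor was its unadjusted p under 0.05. The step from RN to A crosses batches and turns round in the batch-adjusted means, where A lies 0.08 above RN. The 8 tail bud regions had means from 4.46 to 4.65, all undetected. This order of Lhx1 is that of the main probe. By the second probe 2 of 15 steps exceeded the spread, from A to St1 and from St1 to St5. By that probe the step from St5 to CLE lay within the spread and turned round in the batch-adjusted means. Eomes was highest in E7.5 PP (5.60 ± 0.29), and its other 15 regions, all undetected, had means from 4.44 to 4.86.

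Correlations over the 16 fitted region means, batch adjusted, describe which factors had like profiles. The regions share arrays, batches and neighbouring stages, and no test is given. By Pearson r, T and Evx1 were the most alike of the 15 pairs (r = 0.83, Spearman rho = 0.72), followed by Mesp1 and Lhx1 (r = 0.71, rho = 0.77) and Eomes and Lhx1 (r = 0.70, rho = 0.83), the last with 15 of 16 Eomes means at the floor. By rho the order of these 3 pairs is the reverse. Lhx1 was undetected in 9 regions and Mesp1 in 7, so in pairs with them many of the values compared lie near background. Evx1 and Lhx1 (r = -0.57), T and Lhx1 (r = -0.46) and T and Mesp1 (r = -0.46) ran opposite ways. By Pearson r, Mixl1 and Lhx1 were the least related (r = 0.14, rho = 0.16), and by rho Eomes and Mixl1 (0.11).

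The genes most like each factor were sought among 6061 probes of other genes detected on at least 4 arrays with a range of at least 2 over the fitted means, by Pearson r over the 16 regions. For T they were Rspo3, a secreted enhancer of Wnt signalling (r = 0.92), the homeobox gene Hoxa5 (0.91) and the methyltransferase gene Smyd2 (0.89). For Evx1 they were Rspo3 again (0.96), the Wnt ligand gene Wnt3a (0.96) and a probe annotated Thsd2 (0.96). Thsd2 is an older symbol of Rspo3, so both probes stand for the same gene. By each of the probes listed, these genes were lowest in E7.5 A, as were T and Evx1. For Mixl1 they were Rftn1 (0.82), the growth factor gene Fgf3 (0.79) and BC023829 (0.79), a looser likeness than for the other factors. For Mesp1 they were Phlda2 (0.95), the desmosomal cadherin gene Dsg2 (0.94) and Pdzk1 (0.91), and for Lhx1 the calcium pump gene Atp2a1 (0.96), Pvrl2 (0.96) and the phospholipase gene Pla2g12b (0.95). For Eomes the same rule gave the amino acid transporter gene Slc7a9, the apolipoprotein gene Apoa4 and 4933402E13Rik. Its profile was PP above 15 regions at the floor, so a gene raised in PP scores high whatever else it does, and no likeness is read from these.

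**Figure D3:**
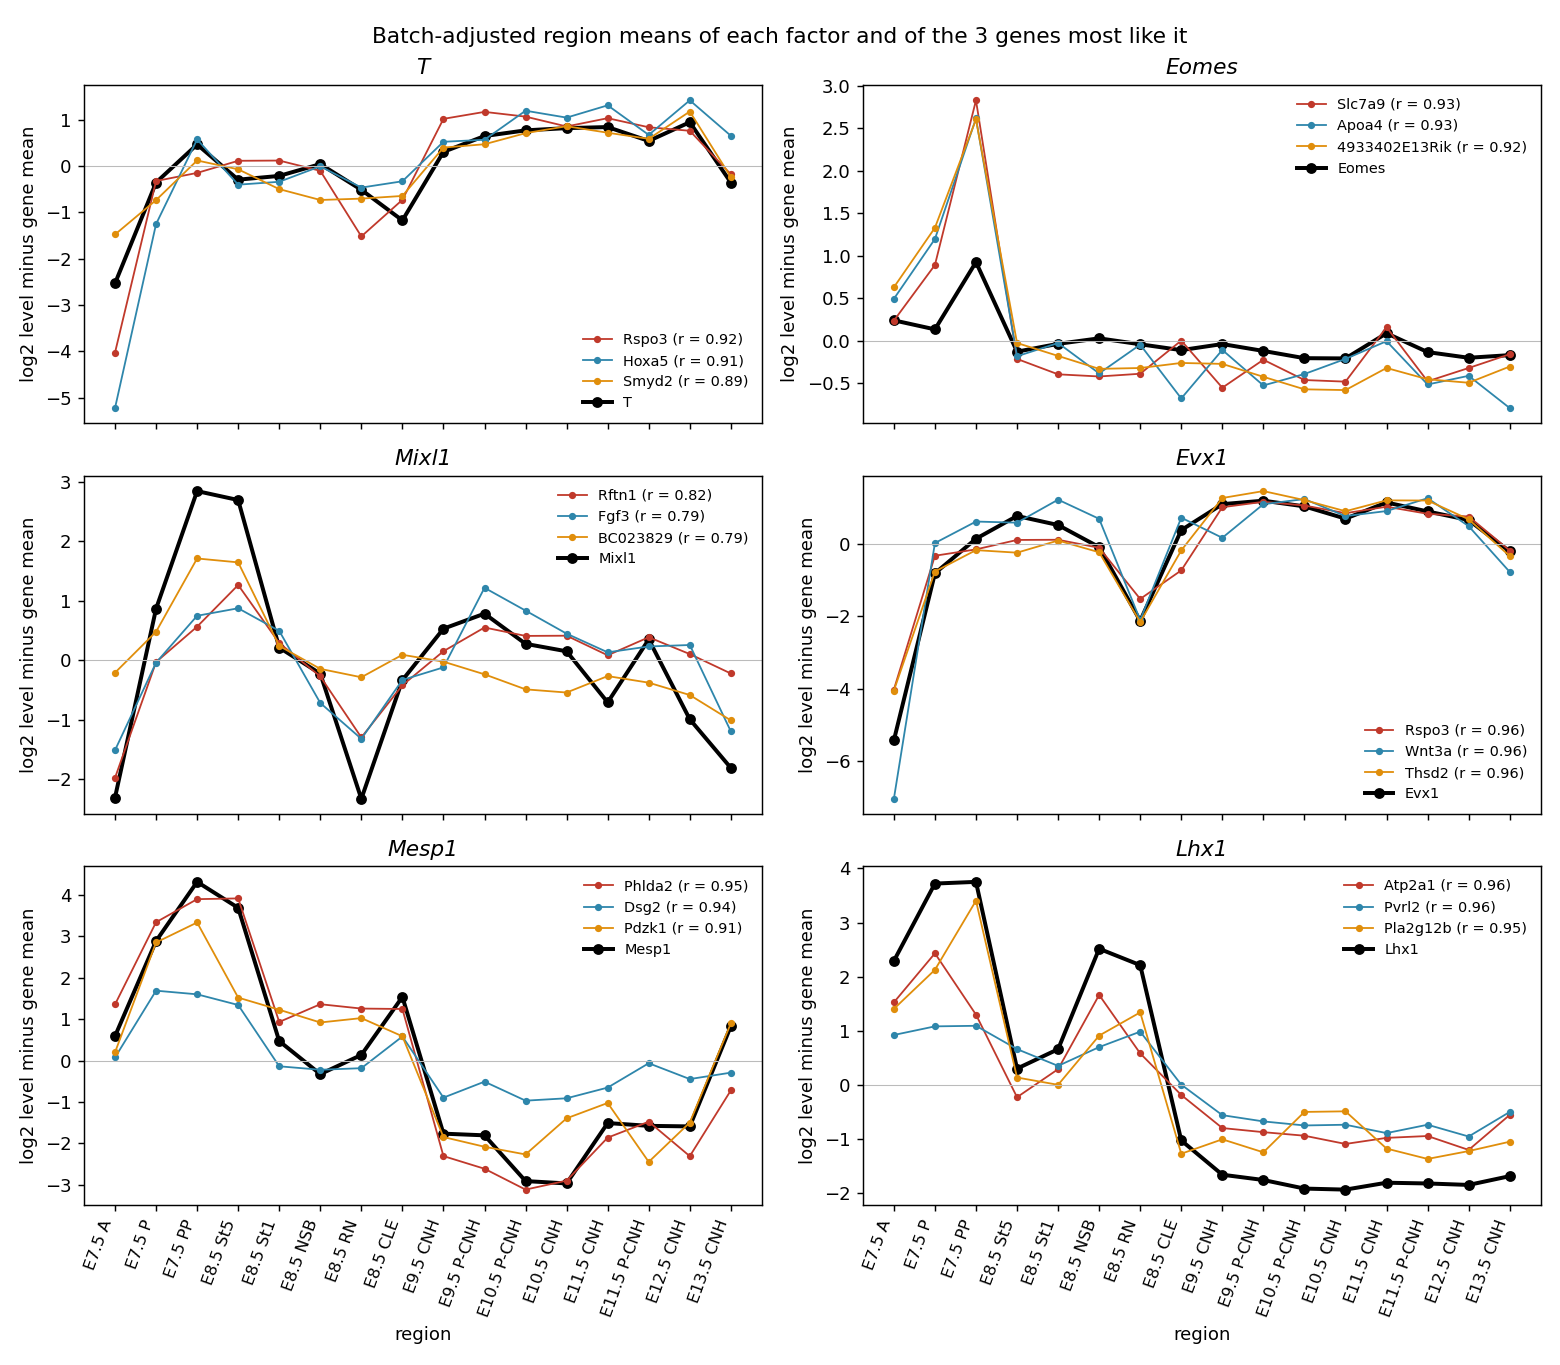
Fitted, batch-adjusted region means minus the gene's own mean (vertical axis, log2) of each factor (black) and of the 3 probes of other genes with the highest Pearson r to it (colours), by region (horizontal axis). T and Evx1 share their low point in E7.5 A with the genes most like them.

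The second probes of Mixl1 and Lhx1 followed the first, with r = 0.98 over the 16 fitted means for both genes, and r = 0.90 for Mixl1 and 0.94 for Lhx1 over the 36 arrays. The second Mixl1 probe was detected on 27 arrays and the second Lhx1 probe on 17. Both probes of Mixl1 gave calls in P against A, PP against A and St5 against St1, and the main probe alone in PP against P and NSB against RN. Both probes of Lhx1 gave calls in PP against A, St1 against NSB, CLE against NSB, St5 against PP and both comparisons of CNH with NSB, and the main probe alone in P against A and NSB against P.

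**Figure D4:**
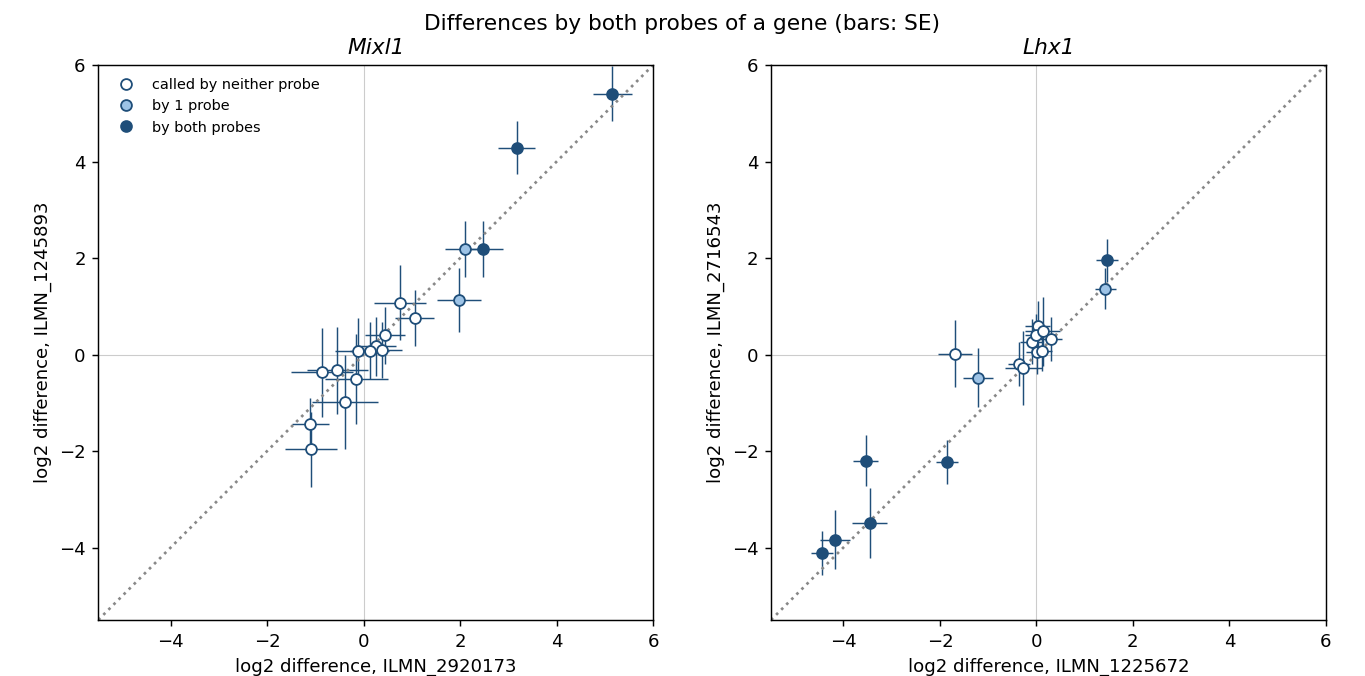
Log2 differences in the 18 comparisons by the main probe (horizontal axis) and by the second probe (vertical axis) of Mixl1 and of Lhx1, with bars of 1 SE and the line of equal values dotted. Dark points were called by both probes, light points by 1 and open points by neither, and the largest differences were called by both probes.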

How the data were processed

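RNA of 36 pools from 16 regions was read on MouseWG-6 v2.0 arrays of Illumina. The deposited table holds, for each probe and array, an intensity that the authors deposited before normalisation and a detection p-value, which is also deposited. The authors' own normalisation with lumi was not used. From these values, background was corrected from the detection p-values and arrays were quantile normalised with limma 3.58.1 in R 4.3.3 (neqc, offset 16, log2). Probes detected at p under 0.01 on at least 1 array were kept, 21712 of 45281, and 23569 were not tested. One linear model of region and batch (18 residual degrees of freedom) with empirical Bayes gave 18 comparisons of regions and 3 differences between differences. P-values were adjusted over all probes by the method of Benjamini and Hochberg within each comparison, and calls needed an adjusted p of 0.05 or less and a fold change of at least 1.5.

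Batches were taken from the labels. Fitted region means are at the mean batch effect, and means with SD are over arrays. A fold given as at least a size is from array means, where the dimmer region was undetected on all arrays. Each array of that region was set to the level of its dimmest detected probe. Some fitted differences from an undetected region are given without such a fold and are no exact measure of the change. Neighbouring regions were said to differ beyond their spread when the gap exceeded the sum of their SDs. Signal over background ran from 2.28 to 15.1 and detected probes from 10814 to 16256 per array, so low levels are less precise on the dimmer arrays. Correlations between replicate arrays of a region ran from 0.858 to 0.997.

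The members and the lists of genes were chosen with earlier results of these data known. The lists were streak-inducing signals (7 of 8 genes tested), streak and paraxial mesoderm genes (14 of 16), axial mesoderm and endoderm genes (9 of 9), cardiac and lateral mesoderm genes (6 of 11) and markers of blood (6 of 6), visceral endoderm (7 of 7), notochord (6 of 6), surface ectoderm (5 of 6), spinal cord neurons (5 of 7), spinal interneurons (4 of 7) and intermediate mesoderm (2 of 6). Some genes stand in more than 1 list. All members are named, and of each list, in a comparison, up to 4 called genes with the largest differences and no overlap between the arrays of both regions. Other named genes are said to have been chosen after their values were seen. The most alike genes had the highest Pearson r over the fitted means. Promoter windows and motif matches were read with Python 3.11.15 from the supplied mouse promoter table, and figures were drawn with matplotlib 3.10.9. The fit was tried on simulated data with changes planted in E8.5 St5 alone. Calls were read in St5 against St1, and false calls there and in E9.5 P-CNH against CNH. Comparisons of batch 1 regions with other batches, the bounds, the steps beyond the spread and the correlations were not tried in this way. Alternatives to background correction, offset, normalisation, batch handling, filter and probe were tried, and each array was left out in turn.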

Additional observations from a re-analysis of the deposited data

How the results depend on the processing

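Of the 26 called differences of the 6 genes, all 26 kept their direction. Of these, 9 kept their call under every alternative and with every array left out for which they could be fitted. Of the 9, Mesp1 in NSB against P and Lhx1 in St5 against PP and in E9.5 CNH against NSB rest on E8.5 NSB replicate 3. They have no value without that array. The 26 include that of Eomes in PP against A, whose probe passed the filter through PP replicate 2 alone. Calls were lost under at least 1 alternative for 15 and with at least 1 array left out for 9. The counts of calls were 12 at E7.5, 6 at E8.5, 0 in the tail bud, 8 between stages and 0 for differences between differences. Over 15 alternatives they ran from 10 to 13, 5 to 9, 0 to 0, 7 to 17 and 0 to 0. The stages count was 17 under ComBat-type adjustment lacking covariates and 14 with the regions as covariates; such an adjustment takes batch effects as known without error, and without covariates it also moves regions that lie in 1 batch, and the cause was not tested. With each array left out, the counts ran from 9 to 13, 4 to 7, 0 to 0, 7 to 10 and 0 to 0. An array left alone in its region was assumed to vary like the others. Without E8.5 NSB replicate 3, which links batch 1 to the others, comparisons of batch 1 regions with regions of the other batches could not be fitted and have no value. With the replicate number as a block, the counts were 12, 6, 0, 7 and 0. Of 246 pairs with the same number, correlations of residuals ran from -0.72 to 0.74, median 0.03, with 79 over 0.1, and of 360 with different numbers from -0.69 to 0.72, median -0.02, with 83 over 0.1. In batch 1 the number coincides with the BeadChip. Leaving out the 5 arrays with the fewest detected probes, and every alternative to the differences between differences, was chosen after seeing the data. Without those 5 arrays the counts were 12, 7, 0, 9 and 0. Cyclic loess moved the median difference of all probes from 0.07 to -0.08 in E9.5 CNH against NSB, from -0.06 to 0.07 in E10.5 against E9.5 CNH and from -0.08 to 0.06 in E13.5 against E11.5 CNH. Signal over background as low as 2.28 limits Eomes, Mesp1, Mixl1 and Lhx1 near the floor, where differences shrink with a larger offset.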
